A study of Homo sapiens with 20 samples.

Results

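The replication-dependent histone genes encode the core histones H2A, H2B, H3 and H4 and the linker histone H1 that package newly copied DNA. Here they were the protein-coding gene rows whose current symbol is H1-1 to H1-6 or begins with H2AC, H2BC, H3C or H4C followed by a number. This rule, which uses names and no measured value, found 68 genes among the 39918 gene rows of the count table: 6 of H1, 17 of H2A, 18 of H2B, 13 of H3 and 14 of H4. By position, 33 lay in the first histone cluster of chromosome 6, 21 in the second one, 11 in the chromosome 1 cluster near the centromere, 2 as a pair on the long arm of chromosome 1 and 1 on chromosome 12.

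As background, these genes are transcribed at the histone locus body, where NPAT, a target of cyclin E with CDK2, activates them in S phase. Their mRNAs end in a conserved stem-loop in place of a poly(A) tail. The stem-loop binding protein SLBP and the U7 snRNP direct the cut after it, and the same stem-loop directs rapid decay when DNA synthesis stops, so that histone mRNA is abundant in S phase and scarce in G2.

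Total RNA depleted of ribosomal RNA was sequenced from HCT-116, an established human colorectal cancer line, in 5 groups of 4 libraries. MG132 plus α-amanitin cells, MG132 cells and bortezomib cells were all held for 16 h in 2 mM thymidine, released into fresh medium for 7 h, and then given drug for 3 h. The drugs were 20 µM MG132 with 50 µg/ml α-amanitin, 20 µM MG132 alone, or 100 nM bortezomib. MG132 and bortezomib inhibit the proteasome, and α-amanitin inhibits RNA polymerase II. G2 cells, labelled G2/M, had the block and the release and no drug, and asynchronous cells had neither block nor drug. Drug groups therefore differ from the G2 group by 3 h of culture as well as by drug, and a vehicle group at that time was not analysed here. The labels do not say whether replicates were separate cultures, so p-values measure the spread between these libraries. In bulk RNA, fewer cells in S phase and less histone RNA per cell cannot be told apart.

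Library totals ranged from 26797395 to 39710457 counts. Of 8 colon epithelial markers, KRT8, KRT18, KRT19, EPCAM, CDH1 and CDX2 were tested, while VIL1 averaged 0.105 to 0.111 CPM (counts scaled to library size) and CDX1 0 to 0.00845 CPM over the groups. Summed markers ranged over all libraries from 3138 to 5865 CPM for epithelium, 3.79 to 16.7 CPM for fibroblasts, 2.48 to 8.66 CPM for leukocytes and 0.107 to 1.98 CPM for endothelium. COL1A2, DCN, PTPRC, CD3E and CDH5 were at 0.0553 CPM or less in every group mean. Other listed markers were higher: 2 of 8 for fibroblasts, 3 of 8 for leukocytes and 1 of 4 for endothelium passed the filter on low counts. G2 replicate 1 and asynchronous replicate 1 stood apart: protein-coding genes took 68.3% and 67.6% of their counts, against 75.5% to 82.2% in the other 18 libraries. These 2 libraries also had 44169 and 41973 CPM of RN7SK, a small nuclear RNA, against 9897 to 27293 CPM elsewhere. All CPM below were scaled by edgeR's trimmed mean of M-values (TMM). This scaling takes most genes as unchanged and so holds the median of all genes near 0. Levels are thus relative to the other RNA of a library, and a change in total RNA cannot be read from them.

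The annotated transcripts show the stem-loop itself. One form of its 16 letters, with a single loop letter left free, was searched for on the transcribed strand of GENCODE 29 transcripts. It was found in 21 of the 66 members with a transcript there, and in 5 other genes among the 58676 searched. Where it was not found, many models end at the stop codon. Others run longer: H4C5 and H4C16, with 1487 and 2578 annotated exon bases and 309 coding ones, had no match. A miss of these fixed letters therefore says nothing of the mRNA. The following sites are shown because they include genes of high, low and near-zero level with the same element. Capitals mark the stem and loop.
H2AC6: caaaGGCTCTTTTCAGAGCCcccct
H2BC18: caaaGGCTCTTTTCAGAGCCacttc
H2BC5: caaaGGCTCTTTTAAGAGCCacgca
H2AC8: caaaGGCTCTTTTCAGAGCCaccca
H2BC9: caaaGGCTCTTTTCAGAGCCactta
H3C8: aaaaGGCTCTTTTAAGAGCCgccta
H2AC6, H2BC18 and H2BC5 averaged 268, 208 and 262 CPM over the 20 libraries, H2AC8 averaged 0.878 CPM, and H2BC9 and H3C8 averaged 0.0188 and 0.0384 CPM. The annotated transcript went on for 39 bases after the stem-loop in H2BC5, for 1114 in H2AC6 and for 1479 in H2BC18. Depletion of ribosomal RNA does not select for poly(A) tails.

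Promoters of 63 members were in the RefSeq table (assembly GRCh38.p14, 250 bases before to 50 after the gene start). Searched on both strands, CCAAT was present in 85.7% of these, against 35.7% of 27305 promoters of all genes. TATAAA was present in 65.1% of members and 12% of all, and TTTNNCGC, letters like those bound by E2F factors, in 30.2% and 6.90%. The octamer ATTTGCAT was present in 41.3% of members and 1.80% of all: in 77.8% of H2B and 68.8% of H2A promoters, in 9.09% of H3 and in no H1 or H4 promoter. H2A and H2B genes often lie head to head, so their windows share bases and are not independent. Of the 11 promoters of genes with under 100 counts in all 20 libraries together, 100% held CCAAT and 36.4% the octamer. For comparison, the windows of 2 highly expressed genes and of a near-zero gene of each family are printed, with matches to the 4 motifs in capitals, some of which touch or overlap, and each read along its gene's strand: H2BC12 (chr6:27146809-27147108, minus), H2BC9 (chr6:26251364-26251663, plus), H1-4 (chr6:26156079-26156378, plus) and H1-3 (chr6:26234938-26235237, minus).
H2BC12: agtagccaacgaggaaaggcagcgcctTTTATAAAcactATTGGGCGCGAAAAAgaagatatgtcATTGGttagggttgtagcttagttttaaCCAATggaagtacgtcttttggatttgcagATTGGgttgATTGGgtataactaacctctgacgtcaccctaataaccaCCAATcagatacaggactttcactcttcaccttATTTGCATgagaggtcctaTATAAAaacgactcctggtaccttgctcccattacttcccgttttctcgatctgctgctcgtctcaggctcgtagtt
H2BC9: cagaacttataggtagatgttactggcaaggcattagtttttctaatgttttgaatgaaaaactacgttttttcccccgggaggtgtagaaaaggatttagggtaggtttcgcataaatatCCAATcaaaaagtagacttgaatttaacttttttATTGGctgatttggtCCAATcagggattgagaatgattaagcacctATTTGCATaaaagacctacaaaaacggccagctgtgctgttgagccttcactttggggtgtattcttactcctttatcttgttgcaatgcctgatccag
H1-4: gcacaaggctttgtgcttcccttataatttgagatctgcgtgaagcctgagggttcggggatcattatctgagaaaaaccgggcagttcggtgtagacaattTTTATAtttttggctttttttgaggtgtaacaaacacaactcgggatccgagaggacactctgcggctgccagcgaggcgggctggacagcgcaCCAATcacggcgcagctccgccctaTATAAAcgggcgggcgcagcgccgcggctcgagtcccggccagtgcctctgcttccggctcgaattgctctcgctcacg
H1-3: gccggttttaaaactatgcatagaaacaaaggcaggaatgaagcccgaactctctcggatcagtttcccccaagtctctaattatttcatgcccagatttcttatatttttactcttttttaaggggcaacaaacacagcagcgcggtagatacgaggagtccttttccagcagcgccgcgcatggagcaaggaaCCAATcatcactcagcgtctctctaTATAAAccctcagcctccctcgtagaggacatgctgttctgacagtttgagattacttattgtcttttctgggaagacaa
H2BC9 held CCAAT and the octamer but not TATAAA in this window, and H1-3 held CCAAT and TATAAA as H1-4 did. Over all members, TATAAA was present in 36.4% of the 11 near-zero genes' windows and in 71.2% of the 52 others, and CCAAT in 100% and 82.7%. By family, CCAAT was present in 100% of H1, H2A, H2B and H3 windows and in 25% of the 12 H4 windows. Every window without it was thus that of an H4 gene, and family and level were not separated here.

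Levels differed between members by several orders of magnitude. Of the 68 genes, 56 passed the filter on low counts. The other 12 had between 2 and 97 counts summed over the 20 libraries and none exceeded 15 counts in a library: H1-3, H1-5, H2AC1, H2AC16, H2BC9, H2BC10, H3C7, H3C8, H3C11, H4C6, H4C9 and H4C13. On a per-length scale, in CPM per kilobase of coding sequence averaged over all libraries, H4C3 was highest with 1017, followed by H2BC12 with 950, H4C15 with 879, H4C5 with 847 and H2BC4 with 776. The scale leaves out noncoding exon bases, and H4C15 and H4C5 have 1929 and 1487 annotated exon bases for 309 coding ones. H4C15 and H2BC12 share 100% and 74.1% of their 50-base runs with other genes, so their places are uncertain. H2BC1, the H2B gene known from testis, had 0.607 on this scale and H1-1 had 0.546. H3C2 and H3C3 have no GENCODE 29 record and were left out of this order. Between 36.9 CPM for H2BC13 and 6.02 CPM for H3C6 no member lay, so that 47 members averaged over 10 CPM and 9 of the tested ones less, a division chosen after the values were seen.

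The near-zero genes lay side by side. Of the 12, 10 formed 2 uninterrupted runs on chromosome 6 (hg38, GENCODE 29 positions). One run of 6 genes, H1-3, H4C6, H3C7, H2BC9, H3C8 and H2BC10, spanned 26234268 to 26273356 and held 96 counts in all. Its neighbours among the members, H3C6 and H4C8, had 3491 and 27320 counts. The other run of 4 genes, H2AC16, H1-5, H3C11 and H4C13, spanned 27865355 to 27873510 with 52 counts, and its neighbours H2AC15 and H3C12 had 35239 and 151983. The runs contain genes of all 5 families. In sequence, 9 of the 12 shared no run of 50 bases with another annotated gene and the highest share was 4.07%, while 16 expressed members shared over 50% of theirs. Copies such as H3C14 and H3C15, H4C14 and H4C15, or H2AC18 and H2AC19 share nearly all such runs. How the authors treated reads that align to more than one copy is not given, so their separate levels are uncertain. The same holds for H3C4 and H2AC7, which overlap another annotated gene on their strand. It also holds for the neighbours H2AC17 and H3C12, and H2AC16 and H2BC15, whose annotated transcripts overlap.

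**Figure D1:**
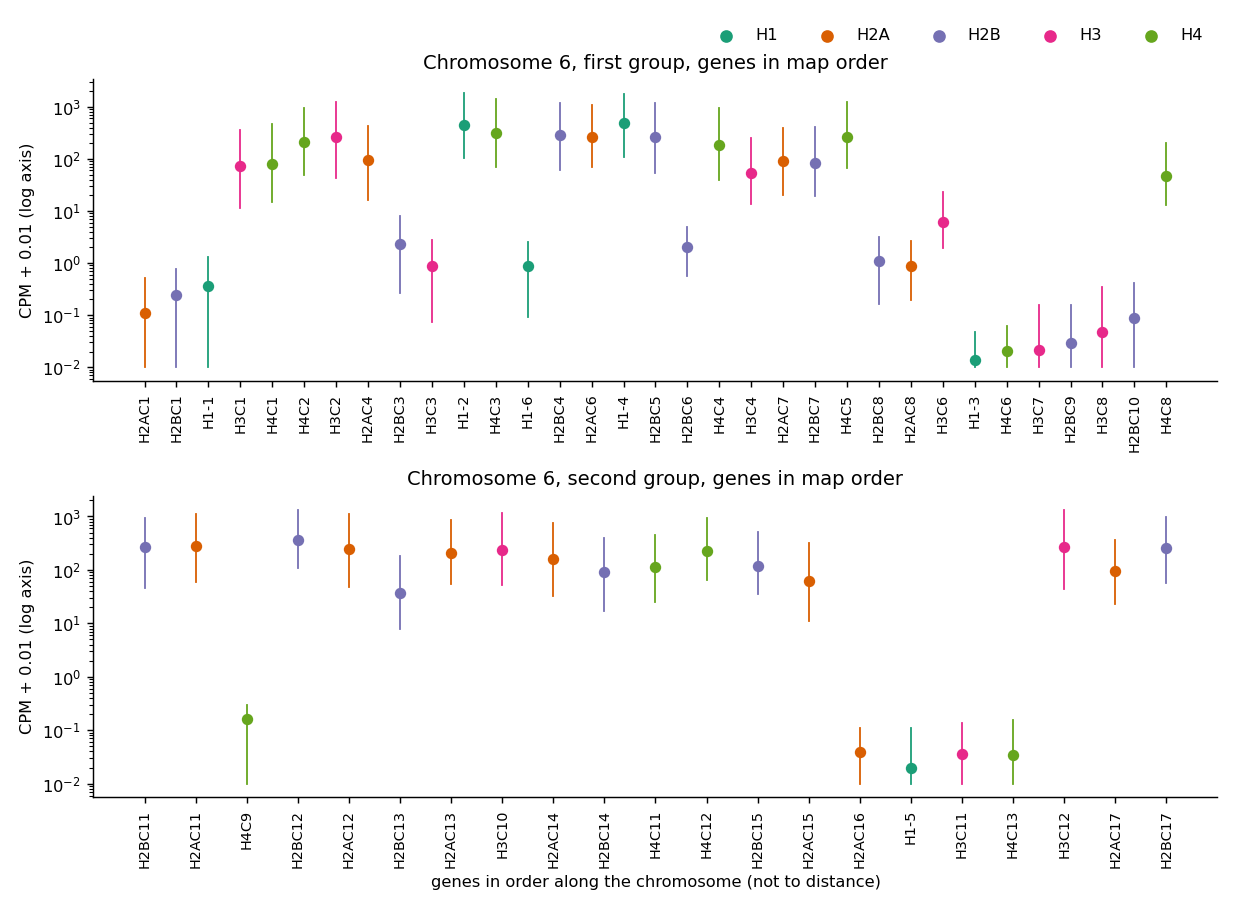
Level of each histone gene of both chromosome 6 clusters, in map order (x axis, not to distance) on a log axis of CPM + 0.01. Points are means over the 20 libraries, lines run from the lowest to the highest library, and colours mark the family. H1-3 to H2BC10 and H2AC16 to H4C13 form runs of near-zero genes between expressed neighbours.

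Histone RNA as a whole was lowest with α-amanitin and most variable in asynchronous cells. The summed level of the 68 genes was 1864, 2125, 3531 and 4418 CPM in MG132 plus α-amanitin libraries and 5294, 5271, 9697 and 8877 CPM in MG132 libraries. It was 7058, 5012, 8293 and 7540 CPM in bortezomib libraries and 8270, 9394, 3652 and 3462 CPM in G2 libraries. Asynchronous libraries had 35177, 3457, 20606 and 9810 CPM, a 10.2-fold range, and asynchronous replicate 2 was below every G2 library. Means were 2984 ± 1204 for MG132 plus α-amanitin, 7285 ± 2336 for MG132, 6976 ± 1404 for bortezomib, 6194 ± 3081 for G2 and 17263 ± 13883 CPM for asynchronous cells (SD, n = 4 each). Without asynchronous replicate 1 the asynchronous mean was 11291 CPM. The MG132 plus α-amanitin libraries lay below all MG132 and all bortezomib libraries, and every other pair of groups overlapped.

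**Figure D2:**
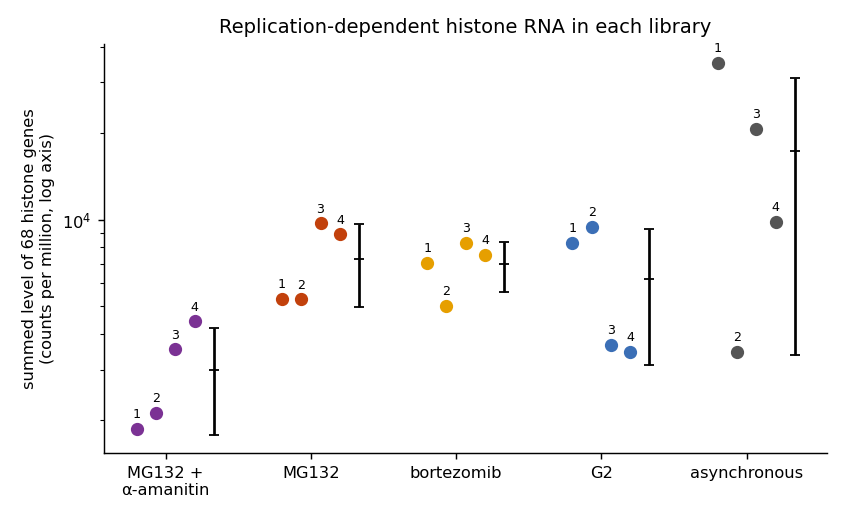
Summed level of the 68 histone genes in each library (points, labelled by replicate number; log axis, CPM), with mean and SD of each group beside them. The MG132 plus α-amanitin libraries lie below all MG132 and bortezomib libraries, and asynchronous replicates 1 and 2 differ 10.2-fold.

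The first comparison set cells released from thymidine for 7 h against cycling cells. Histone mRNAs were lower in G2 cells on average, in all 5 families. H4C1, an H4 gene, had 57.8, 67.3, 33.9 and 30.6 CPM in G2 libraries, against 459, 58.9, 247 and 112 CPM in asynchronous libraries, a log2 fold change of -2.21 ± 0.50 (SE; edgeR adjusted p = 0.0224). Asynchronous replicate 2 lay among the G2 libraries and the other 3 above them. H2BC18 had 131, 170, 81.4 and 79.8 CPM in G2 libraries, against 1111, 102, 744 and 359 CPM in asynchronous ones (log2 -2.32 ± 0.53, edgeR adjusted p = 0.0238). H2BC5 had 175, 248, 115 and 112 CPM in G2 libraries, against 1197, 157, 732 and 385 CPM in asynchronous ones (log2 -1.92 ± 0.45, edgeR adjusted p = 0.0286). For both H2B genes asynchronous replicate 2 lay within the G2 range and the other 3 asynchronous libraries above it. These 3 genes fell and none rose. The share of all 18959 genes called was 0.148% for lower and 1.95% for higher.

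In all, 51 of 56 tested members had a lower fitted level in G2 cells, 40 of them at an unadjusted p under 0.05, where 3.91% of all genes were, and none was higher at that level, where 9.2% of all genes were. The median log2 fold change of the members was -1.43, beside -0.04 for all genes tested. For no member did the 2 groups separate completely, and asynchronous replicate 2 was among the lowest libraries for most of them. Of all genes, 1.89% separated with G2 lower and 5.75% with G2 higher. Family medians were -1.01 for H1, -1.42 for H2A, -1.58 for H2B, -1.52 for H3 and -1.34 for H4. All 47 members over 10 CPM were lower, between -0.82 and -2.32, while 5 of the 9 rare ones were higher. The most abundant linker histone gene, H1-4, had 556, 564, 256 and 235 CPM in G2 libraries and 1759, 308, 1464 and 779 CPM in asynchronous ones (log2 -1.42 ± 0.44, edgeR adjusted p = 0.112). H3C12 averaged 206 ± 113 CPM in G2 and 615 ± 561 CPM in asynchronous libraries (SD, n = 4; log2 -1.57 ± 0.60, edgeR adjusted p = 0.220). Calls depended on single libraries: 0 members passed without asynchronous replicate 1 or without G2 replicate 1, 3 or 4 (11, 44, 27 and 27 at an unadjusted p under 0.05), and 24 passed, all lower, without asynchronous replicate 2. DESeq2 called 17 lower, where it called 136 of all 18959 genes lower and 578 higher. The members' median was -0.79 without asynchronous replicate 1. Within sample code letters, which the labels do not explain, G2 had 8270 summed CPM against 35177 in asynchronous cells for letter L, and a mean of 5502 in 3 G2 libraries against 20606 in 1 asynchronous library for letter O. With the letter as a block 0 members passed and 40 had an unadjusted p under 0.05. Without G2 replicate 1 and asynchronous replicate 1, the libraries poor in protein-coding RNA, 0 passed and 12 had such a p. Markers of other cells moved with the groups at low levels: the summed fibroblast markers ran from 7.77 to 12.9 CPM in G2 and from 3.79 to 5.06 CPM in asynchronous libraries, where both tested ones, ACTA2 and COL1A1, rose. Endothelial markers ran from 0.951 to 1.80 CPM and from 0.107 to 0.555 CPM, where the 1 tested, VWF, rose, and leukocyte markers overlapped. Their part in the result was not tested.

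Summed levels of 30 DNA replication genes ran from 3720 to 4833 CPM in G2 libraries and from 4614 to 5895 CPM in asynchronous ones, with 4890 CPM in asynchronous replicate 2, the library low in histone RNA. Of these genes none passed in edgeR, 10 had an unadjusted p under 0.05 and DESeq2 called 2. Among 32 factors of histone transcription, mRNA processing and chaperoning, 1 fell: E2F1, which activates genes needed to enter S phase, had 18.3, 25.6, 18.7 and 19.0 CPM in G2 libraries, against 41.9, 33.9, 49.6 and 27.2 CPM in asynchronous ones (log2 -0.90 ± 0.19, edgeR adjusted p = 0.0150). The groups did not overlap. That call was lost without G2 replicate 1 (edgeR adjusted p = 0.058) or G2 replicate 4 (0.060), without the 2 libraries poor in protein-coding RNA, with only these 2 groups fitted, and under scaling by mitochondrial mRNA or by total counts. SLBP averaged 125 ± 27.88 CPM in G2 and 159 ± 32.3 CPM in asynchronous cells (SD, n = 4; edgeR adjusted p = 0.593), and NPAT 27.98 ± 10.3 and 35.8 ± 15.8 CPM. Of 12 replication-independent histone genes, whose polyadenylated mRNAs are made outside S phase too, CENPA, the centromeric H3, rose (44.9 ± 8.65 CPM in G2, 26.2 ± 3.78 CPM in asynchronous cells, SD, n = 4; log2 0.78 ± 0.20, edgeR adjusted p = 0.0463), a call that RLE and mitochondrial scaling, the code letter as a block (edgeR adjusted p = 0.134), a fit of these 2 groups alone (0.150) and most single omissions ended. H2AZ1 averaged 654 ± 232 and 716 ± 359 CPM, and H3-3B 1106 ± 227 and 1121 ± 349 CPM, in G2 and asynchronous cells.

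**Figure D3:**
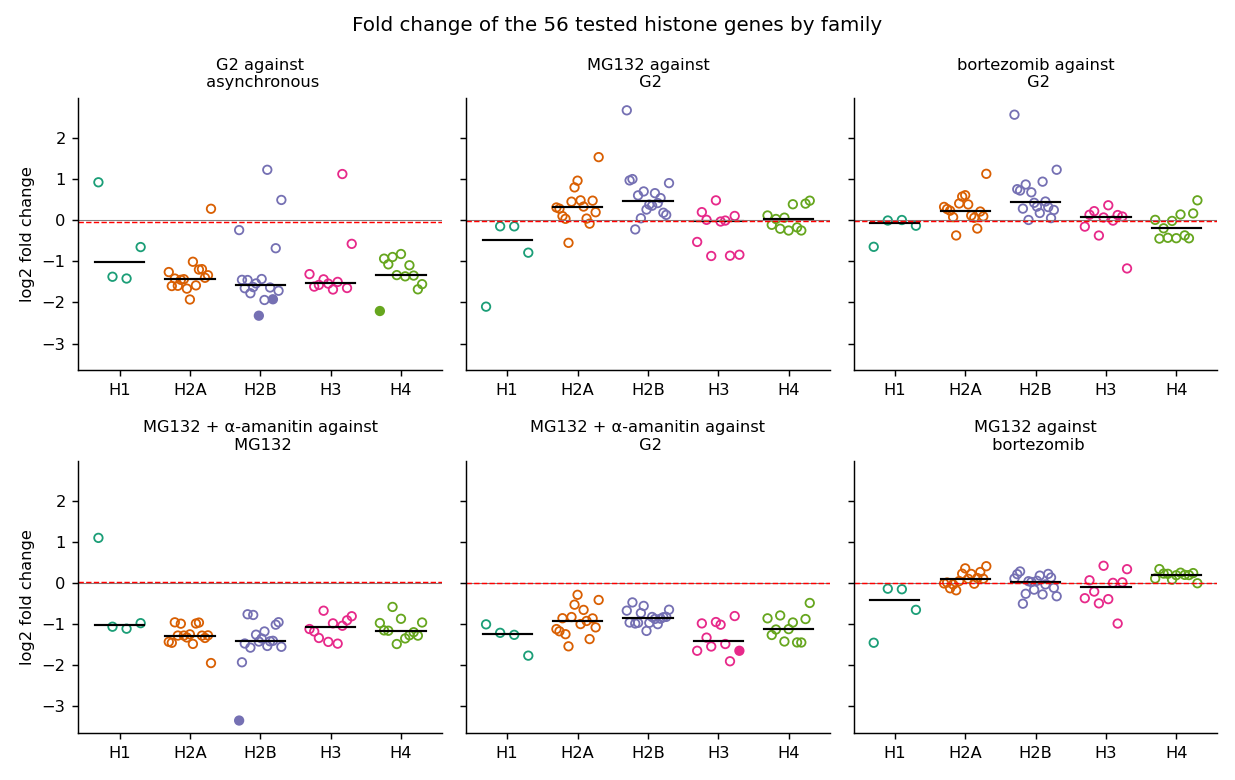
Log2 fold change (first group over second) of each of the 56 tested members, by family, in the 6 comparisons. Filled points passed an adjusted p of 0.05 in edgeR, black bars are family medians and the dashed red line is the median of all genes tested. With α-amanitin, and in G2 against asynchronous cells, nearly all points lie below 0, and in MG132 or bortezomib against G2 the H2B points lie mostly above it.

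The proteasome inhibitors were compared with the G2 group, the cells at the time of drug addition. No single histone gene passed the adjusted test, and no test between families was made. In MG132 cells 0 of 56 members passed in edgeR, with 3 higher and 2 lower at an unadjusted p under 0.05 (4.13% and 7.67% of all genes), and DESeq2 called 1, higher, where it called 331 of all genes higher. That call was H2BC1, which was also among the 3 higher. H2BC1 passed the low-count filter through the MG132 and bortezomib libraries, so its values here are a description and support nothing. The background was 1.01% of genes called higher and 1.08% lower. Members were higher in 38 cases and lower in 18, with a median log2 fold change of 0.16 beside -0.03 for all genes. Scaling by 13 mitochondrial mRNAs, which moved the median of all genes to -0.29, turned the members' median to -0.07. Single libraries turned it too: without G2 replicate 3, G2 replicate 4 or MG132 replicate 3 the medians were -0.02, -0.04 and -0.03, with 26, 26 and 27 members higher, and without G2 replicate 2 it was 0.47 with 46 higher. With the code letter as a block it was 0.39 with 47 higher. By family, 15 of 16 H2B genes and 13 of 15 H2A genes were higher, with medians of 0.48 and 0.31, while all 4 tested H1 genes were lower, with a median of -0.47. Under mitochondrial scaling these medians were 0.25 for H2B, 0.06 for H2A and -0.70 for H1, and with the letter as a block 2 of the 4 H1 genes were higher. Within code letters the summed level differed in direction, at 5271 CPM in MG132 against 8270 CPM in G2 cells for letter L, and means of 9287 against 5502 CPM for O.

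In bortezomib cells, likewise, 0 of 56 members passed in edgeR, 1 was higher and 1 lower at an unadjusted p under 0.05 (5.53% and 8.99% of all genes), and DESeq2 called 1, higher, where it called 264 of all genes higher. Both the higher member and the DESeq2 call were H2BC1, again a description only. The background was 0.491% called higher and 0.659% lower. Here 40 members were higher and 16 lower, with a median of 0.14 beside -0.01 for all genes, and of -0.10 under mitochondrial scaling, where the median of all genes was -0.22. Without G2 replicate 3 or 4 it was -0.04 and -0.07, with 26 and 25 members higher, and with the code letter as a block 0.66, with 53 higher. All 16 H2B genes were higher, with a median of 0.44, 13 of 15 H2A genes were higher, with a median of 0.23, and 7 of 11 H4 genes were lower, with a median of -0.20. Under mitochondrial scaling the medians were 0.21 for H2B, 0.01 for H2A and -0.46 for H4, and with the letter as a block the medians were 0.23 for H1, 0.72 for H2A, 0.98 for H2B, 0.49 for H3 and 0.41 for H4. Letter O gave 7058 CPM in 1 bortezomib library against a mean of 5502 CPM in 3 G2 libraries. The 2 drug groups share their G2 libraries, so that their values are not independent.

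H2BC12, the most abundant H2B gene, had the highest fold change with MG132 of the 47 members over 10 CPM. With bortezomib the highest of these was log2 0.87, for H2BC14 (101 ± 34.7 CPM, against 55.4 ± 32.1 CPM in G2 libraries, SD, n = 4), with overlap. The changes of H2BC12 lay above the H2B medians of 0.48 with MG132 and 0.44 with bortezomib. H2BC12 shares 74.1% of its 50-base runs with other genes, so its separate level is uncertain. It had 346, 280, 564 and 497 CPM in MG132 libraries, 368, 260, 390 and 372 CPM in bortezomib libraries and 174, 383, 144 and 143 CPM in G2 libraries. G2 replicate 2 lay among the drug libraries and the other 3 G2 libraries below them. Its log2 fold change was 1.00 ± 0.46 for MG132 (edgeR adjusted p = 0.385) and 0.72 ± 0.45 for bortezomib (edgeR adjusted p = 0.476). H2BC11 had 242, 250, 440 and 383 CPM in MG132 libraries, 316, 196, 330 and 293 CPM in bortezomib libraries and 208, 258, 108 and 97.8 CPM in G2 libraries, overlapping in each case.

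Shares of the histone counts, which do not depend on how libraries are scaled, separated the groups further. H2B genes made up 31.7%, 27.7%, 31.7% and 28.4% of histone counts in MG132 libraries and 29.9%, 30.0%, 29.7% and 29.1% in bortezomib libraries. They made up 28.4%, 27.2%, 27.3% and 27.5% with MG132 plus α-amanitin, and 18.5%, 25.5%, 26.4% and 26.6% in G2 libraries. Every drug-treated library was thus above every G2 library, of which replicate 1 was the lowest. Asynchronous libraries had 26.8%, 26.01%, 27.8% and 29.3%, overlapping both. G2 replicate 1 is also 1 of the 2 libraries poor in protein-coding RNA. As its share was the lowest, leaving it out could not change the order. The gap was narrow, from 26.6% in G2 replicate 4 to 27.2% in MG132 plus α-amanitin replicate 2. H1 genes held 7.90% to 10.5% in MG132 libraries and 10.8% to 11.4% with α-amanitin added, against 11.99% to 13.1% in G2 libraries, whereas bortezomib libraries, at 10.0% to 12.6%, overlapped them. H3 genes held 11.5% to 13.3% in MG132 libraries, 11.7% to 13.2% with α-amanitin added and 13.9% to 15.0% in G2 libraries, with bortezomib at 12.9% to 14.1%. H4 genes held 19.6% to 21.2% in bortezomib and 22.4% to 30.0% in G2 libraries. MG132 libraries, at 20.3% to 24.4%, and those with α-amanitin added, at 22.3% to 24.9%, overlapped the G2 libraries in H4 share. H2BC11 alone took 4.32% to 4.74% of histone counts in MG132 and 3.89% to 4.48% in bortezomib libraries, against 2.52% to 2.96% in G2 libraries, and 2.71% to 3.05% with α-amanitin. H2BC11 and H2BC12 were singled out after their values were seen, and no test was made of these shares. Family shares add up to the whole of a library's histone counts, so higher H2B and lower other shares are not separate results. Nor are shares corrected for gene GC content, with which levels varied in MG132 replicates 2 and 4 (slopes of -0.41 and 0.74 log2 per 10 GC points). The lowest H1 share, 7.90%, was in MG132 replicate 2.

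**Figure D4:**
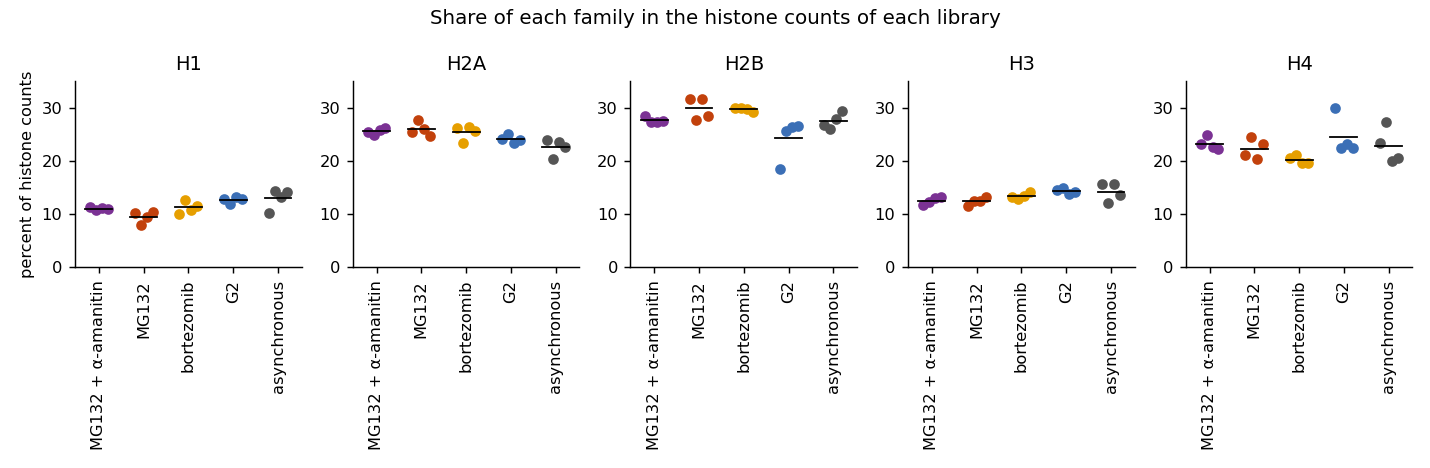
Percent of each library's histone counts that fell on each family (points are libraries, bars are group means; linear axis beginning at 0). The H2B share is 27.2% or more in every drug-treated library and 26.6% or less in every G2 library.

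The rare members with the smallest p were H2BC1, H2AC8, H1-1 and H3C6. H2BC1 was counted 12, 11, 20 and 16 times in MG132 libraries and 22, 2, 16 and 11 times in bortezomib libraries, against 2, 3, 1 and 4 times in G2 libraries. MG132 and G2 libraries did not overlap, and bortezomib replicate 2 lay within the G2 range. With at most 7 counts in any library of the other groups, H2BC1 passed the low-count filter through the MG132 and bortezomib libraries, so its differences between these and the other groups are a description and support nothing. The log2 fold change was 2.67 ± 0.72 for MG132 (edgeR adjusted p = 0.0578) and 2.57 ± 0.72 for bortezomib (edgeR adjusted p = 0.0878). H2AC8 had 1.45, 0.988, 2.64 and 1.52 CPM in MG132 and 0.882, 0.962, 0.184 and 0.265 CPM in G2 libraries (log2 1.53 ± 0.57, edgeR adjusted p = 0.227), without overlap. These were the 2 members that separated with MG132 higher, beside 2.07% of all genes, and no member did so with bortezomib, beside 7.66%. As H2BC1 passed the filter through its MG132 and bortezomib libraries, counting it beside that share supports nothing. H1-1 was counted 3, 0, 14 and 1 times in MG132 and 15, 50, 7 and 14 times in G2 libraries (log2 -2.10 ± 0.74, edgeR adjusted p = 0.188).

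H3C6, an H3 gene next to the near-zero run, went the other way. It had 3.87, 5.45, 3.53 and 4.80 CPM in MG132 libraries, 3.55, 4.02, 3.70 and 2.70 CPM in bortezomib libraries and 10.8, 9.49, 5.58 and 5.74 CPM in G2 libraries. Neither drug group overlapped the G2 group, as was so for lower values in 4.45% of all genes with MG132 and 7.55% with bortezomib. The log2 fold change was -0.84 ± 0.36 for MG132 (edgeR adjusted p = 0.321) and -1.17 ± 0.36 for bortezomib (edgeR adjusted p = 0.113). The bortezomib value passed in a fit of the 2 groups alone and without asynchronous replicate 1.

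Among the 32 factors, ZNF473, the zinc finger protein of the U7 snRNP processing step, rose with MG132: 47.8, 68.7, 57.9 and 50.7 CPM in MG132 and 27.6, 35.3, 29.2 and 30.4 CPM in G2 libraries (log2 0.88 ± 0.18, edgeR adjusted p = 0.0124), without overlap. That call was lost under scaling by mitochondrial mRNA or total counts and with only these 2 groups fitted. In bortezomib cells it had 46.1 ± 6.21 CPM (SD, n = 4; edgeR adjusted p = 0.116), and of this list none passed in edgeR there, 5 had an unadjusted p under 0.05 and DESeq2 called 1. CCNE2, a cyclin E, averaged 65.5 ± 39.1 CPM in MG132, 53.2 ± 7.86 in bortezomib and 26.05 ± 8.77 in G2 cells (SD, n = 4), and NPAT 67.7 ± 38.2, 56.9 ± 8.13 and 27.98 ± 10.3 CPM. In MG132 replicate 4 both were low, at 12.03 and 14.4 CPM, and without it CCNE2 passed for MG132 against G2 (edgeR adjusted p = 0.00917). SLBP averaged 191 ± 55.99, 141 ± 14.8 and 125 ± 27.88 CPM in the same 3 groups. Of the 30 DNA replication genes 1 rose with MG132, CDC6, the origin licensing factor (274 ± 52.0 CPM in MG132, 154 ± 27.3 in G2, SD, n = 4; log2 0.83 ± 0.18, edgeR adjusted p = 0.0183). That call was lost without G2 replicate 1, 3 or 4 or MG132 replicate 1 or 3, at edgeR adjusted p between 0.053 and 0.075, with the code letter as a block (0.0752), with only these 2 groups fitted (0.298) and under scaling by mitochondrial mRNA (0.454) or total counts (0.0652). With bortezomib none of the 30 passed in edgeR, 2 had an unadjusted p under 0.05 and DESeq2 called 0. CENPA fell with bortezomib (23.8 ± 2.82 CPM against 44.9 ± 8.65 in G2, SD, n = 4; log2 -0.92 ± 0.20, edgeR adjusted p = 0.0271). That call was lost without bortezomib replicate 1, 2 or 4 or G2 replicate 1 or 2, at edgeR adjusted p between 0.0848 and 0.117, with the code letter as a block (0.611) and under mitochondrial scaling (0.0816). With MG132 none of the 12 replication-independent histones passed in edgeR, 1 had an unadjusted p under 0.05 and DESeq2 called 0. PCNA, the replication clamp, averaged 229 ± 86.2 CPM in MG132, 215 ± 37.7 in bortezomib and 307 ± 103 in G2 cells. NASP, a histone chaperone, averaged 168 ± 36.5, 187 ± 22.5 and 165 ± 33.2 CPM in the same groups.

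Between MG132 and bortezomib cells no histone gene passed the test, which does not show that the drugs acted alike. None of 56 members passed in edgeR or DESeq2, none had an unadjusted p under 0.05 in edgeR (1.84% of all genes higher, 2.21% lower), and DESeq2 had 1 lower at that level. Of all genes 0.0369% were called higher with MG132 and 0% lower. None separated either, where 1.74% of all genes did with MG132 higher and 1.42% with it lower. The members' median log2 fold change was 0.05, with H4 at 0.20 and H1 at -0.41. It lay between -0.10 and 0.20 with 1 library left out. With the letter as a block it was -0.22, and the family medians were -0.78 for H1, -0.32 for H2A with 2 of 15 genes higher, -0.19 for H2B with 2 of 16 higher, -0.37 for H3 and -0.16 for H4. The extreme member was H1-1, at -1.46 ± 0.77 (edgeR adjusted p = 0.983). For H2BC12 the difference was 0.28 ± 0.45 (SE). None of the 3 gene lists had a call in edgeR or DESeq2, and 1 DNA replication gene had an unadjusted p under 0.05. Letter O gave a mean of 9287 CPM in 2 MG132 libraries against 7058 CPM in 1 bortezomib library.

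The cells given MG132 with α-amanitin were set against those given MG132 alone. Histone mRNAs were lower across all families. Of 56 members, 55 were lower, with a median log2 fold change of -1.26 beside 0.02 for all genes, and 35 had an unadjusted p under 0.05, against 5.87% of all genes. The scaling sets the median of all genes, so it does not show that other RNA was unchanged by α-amanitin. The fall is relative to the other RNA of the libraries. None was higher at that level, where 6.62% of all genes were. In 31 members every α-amanitin library lay below every MG132 library, 55.4% of those tested, where 4.01% of all genes did so, and in none above, where 4.82% did. Family medians were -1.02 for H1, -1.28 for H2A, -1.41 for H2B, -1.08 for H3 and -1.16 for H4. Single genes rarely passed the adjusted threshold: 1 fell in edgeR, where 1.51% of genes were called lower and 0.68% higher, and DESeq2 called 6 lower, where it called 494 of all 18959 genes lower and 225 higher. All these counts of lower members include H2BC1, which passed the low-count filter through the MG132 and bortezomib libraries. The 1 called in edgeR was H2BC1 itself.

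H2BC11 had 53.4, 64.8, 107 and 120 CPM with MG132 plus α-amanitin, against 242, 250, 440 and 383 CPM with MG132 (log2 -1.93 ± 0.57, edgeR adjusted p = 0.0910). The highest α-amanitin library was below the lowest MG132 library by a wide margin. H2BC12 had 107, 120, 177 and 203 CPM, against 346, 280, 564 and 497 CPM with MG132 (log2 -1.47 ± 0.46, edgeR adjusted p = 0.122). H2AC11 averaged 100.5 ± 45.2 and 271 ± 87.7 CPM, H3C2 74.8 ± 33.9 and 208 ± 84.6 CPM, and H4C15 85.3 ± 26.4 and 239 ± 71.7 CPM, with and without α-amanitin (SD, n = 4), each without overlap. H1-4 and H1-2 overlapped, at 109, 108, 199 and 255 CPM against 264, 243, 488 and 458 CPM for H1-4 (log2 -1.11 ± 0.44, edgeR adjusted p = 0.263).

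The gene that passed was H2BC1, the rare member whose place above the low-count filter came from the MG132 and bortezomib libraries, so that its call is a description. It was counted 1, 1, 1 and 3 times with MG132 plus α-amanitin and 12, 11, 20 and 16 times with MG132 (log2 -3.35 ± 0.77, edgeR adjusted p = 0.0223). It lost the call without MG132 replicate 3 or without MG132 plus α-amanitin replicate 1, 2 or 3, at edgeR adjusted p between 0.054 and 0.106. Without asynchronous replicate 2, which enters only through the shared spread, 5 members passed. The 1 member higher with α-amanitin was the rare H1-1 (log2 1.10 ± 0.78, edgeR adjusted p = 0.628). Within code letters the summed histone level was lower each time: 1864 against 5294 CPM for letter K, 2125 against 5271 for L, and 4418 against a mean of 9287 in 2 MG132 libraries for O. With the letter as a block 1 member passed and 7 had an unadjusted p under 0.05. MG132 replicates 2 and 4 had levels that varied with gene GC content (slopes of -0.41 and 0.74 log2 per 10 GC points). Without these and 2 further such libraries 0 members passed, the members' median was -1.26, and H2BC1 was at -3.34. With an offset for gene GC content and length 4 members passed, 43 had an unadjusted p under 0.05 and the median was -1.23.

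The gene lists showed smaller median differences than the histone members. ZNF473 fell, with 25.2, 28.98, 33.5 and 39.2 CPM with MG132 plus α-amanitin against 47.8, 68.7, 57.9 and 50.7 CPM with MG132 (log2 -0.83 ± 0.18, edgeR adjusted p = 0.0167). That call was lost without MG132 replicate 2 or MG132 plus α-amanitin replicate 1 or 2, at edgeR adjusted p between 0.054 and 0.098, with the code letter as a block (0.0565), with only these 2 groups fitted (0.127) and under scaling by mitochondrial mRNA or total counts. The median of the 32 factors was -0.18, of the 30 DNA replication genes -0.18 and of the 12 replication-independent histones 0.01. Of the 32 factors 1 passed in edgeR, 5 had an unadjusted p under 0.05 and DESeq2 called 3. CCNE2 did not pass in edgeR, and its log2 fold change lay between -1.75 and -1.12 with 1 library left out. It passed in DESeq2 (log2 -1.43, DESeq2 adjusted p = 0.0412) and without MG132 replicate 4 (edgeR adjusted p = 0.00693). It also passed without the 4 libraries skewed by GC content (0.00895) and with the GC and length offset (0.0130). Of the DNA replication genes 0 passed in edgeR, 2 had an unadjusted p under 0.05 and DESeq2 called 1. Of the replication-independent histones 0 passed in edgeR, 1 had an unadjusted p under 0.05 and DESeq2 called 0. H3-3B averaged 816 ± 105 and 1046 ± 181 CPM, and H2AZ1 444 ± 78.0 and 560 ± 165 CPM, with and without α-amanitin.

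MG132 plus α-amanitin cells were also set against the G2 group, which also serves the MG132 comparison, so that the values are not independent. All 56 members were lower, with a median log2 fold change of -0.98 beside 0.00 for all genes. At an unadjusted p under 0.05 were 20 members, against 8.56% of all genes, and none was higher at that level, against 5.82%. In 3 members, or 5.36%, the groups did not overlap, where 7.24% of all genes were lower without overlap and 7.76% higher. H3 genes had the lowest median, at -1.41, and H2B genes the highest, at -0.85. H3C6 fell, with 1.92, 2.69, 2.61 and 2.82 CPM with MG132 plus α-amanitin against 10.8, 9.49, 5.58 and 5.74 CPM in G2 libraries (log2 -1.65 ± 0.36, edgeR adjusted p = 0.0130), where 2.32% of all genes were called lower and 1.04% higher. That call was lost without G2 replicate 1 (edgeR adjusted p = 0.055) or MG132 plus α-amanitin replicate 1 (0.063), and with the code letter as a block (0.060), where 2 members had an unadjusted p under 0.05 and the members' median was -0.44. Without G2 replicate 2 that median was -0.65. H4C3, the highest gene per coding length, had 69.6, 89.8, 131 and 155 CPM against 534, 362, 162 and 159 CPM in G2 libraries, just without overlap (log2 -1.45 ± 0.45, edgeR adjusted p = 0.0913). DESeq2 called 2 members lower, where it called 635 of all genes lower, 2 passed without asynchronous replicate 1, and scaling by mitochondrial mRNA, under which the median of all genes was -0.41, gave 9. CENPA fell (22.9 ± 4.34 against 44.9 ± 8.65 CPM, SD, n = 4; log2 -0.97 ± 0.20, edgeR adjusted p = 0.0079), a call lost with the code letter as a block (log2 -0.84, edgeR adjusted p = 0.0737). Of the 32 factors 0 passed in edgeR, with 1 at an unadjusted p under 0.05 and 0 in DESeq2, and of the 30 DNA replication genes 0 passed, with 3 and 0. Within code letter L the summed histone level was 2125 against 8270 CPM, and within O 4418 CPM against a mean of 5502 in 3 G2 libraries.

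**Figure D5:**
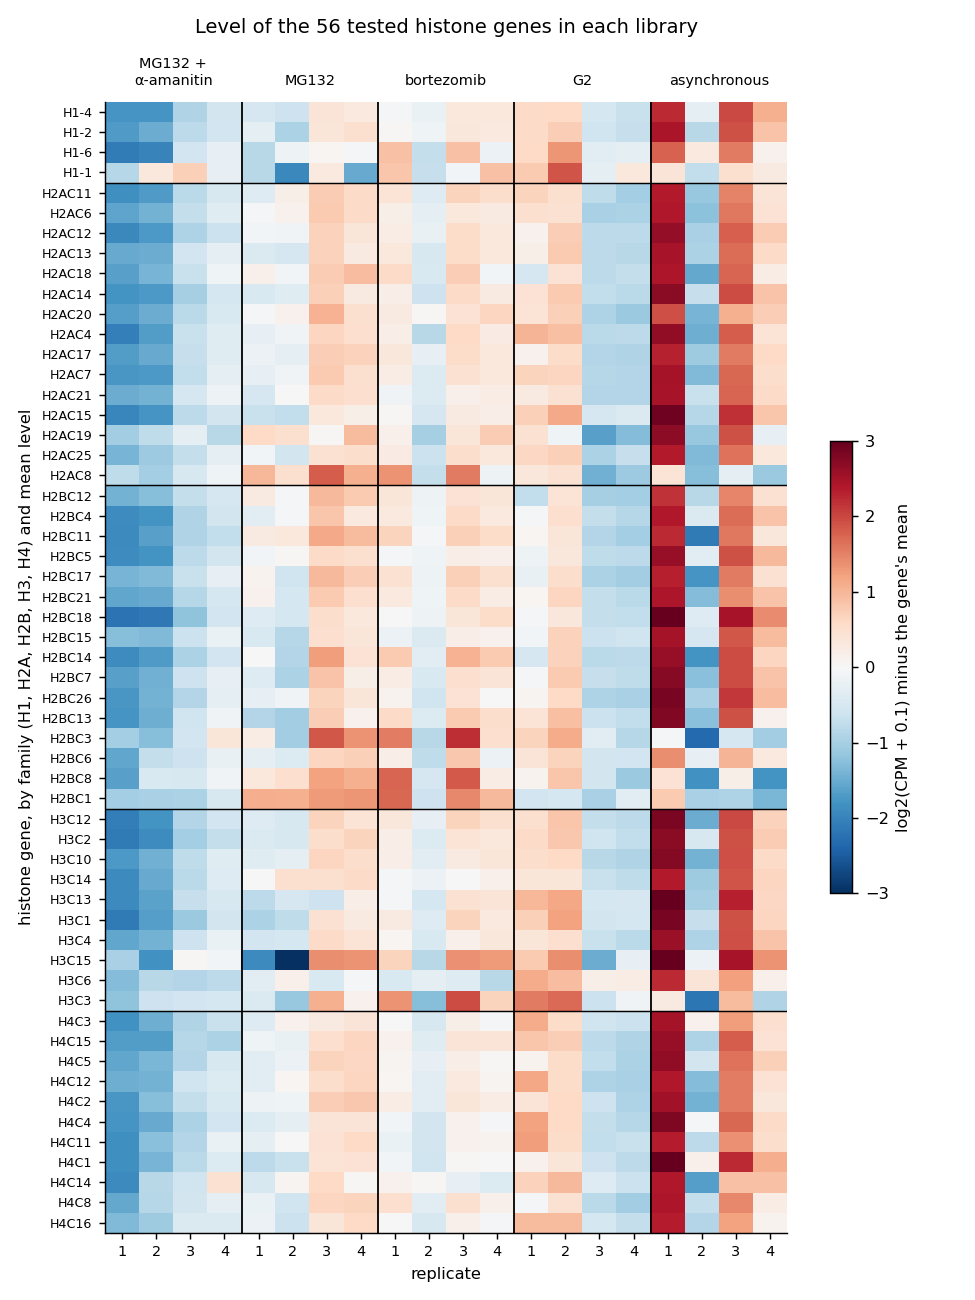
Level of each tested member (rows, grouped by family and ordered by mean level) in each library (columns, by group and replicate), as log2(CPM + 0.1) minus the gene's own mean. Columns change as blocks: asynchronous replicates 1 and 3 are high and MG132 plus α-amanitin replicates 1 and 2 low in nearly all rows, while H2AC8, H2BC1, H2BC3, H2BC8, H3C3 and H1-1, among others, follow another pattern.

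Median changes lay close together for members of different annotated length or uniqueness. With α-amanitin against MG132, the 18 members with over 1000 annotated exon bases had a median log2 fold change of -1.18, and the 36 shorter ones -1.27. For G2 against asynchronous cells these medians were -1.49 and -1.43. The 29 members sharing under 5% of their 50-base runs with other genes had medians of -1.18 with α-amanitin and -1.35 in G2, and the 25 sharing more had -1.28 and -1.54. H3C2 and H3C3 had no such annotation. These splits were chosen after the data were seen and were not tested.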

How the data were processed

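The authors deposited 1 table of raw counts per gene and repeat subfamily for 20 libraries, whole numbers with no normalisation (41092 rows, 39918 of them genes), and all columns were matched to samples by name. Per the labels' protocols, rRNA was removed and the library kit keeps strand. FastQC, cutadapt 1.18, STAR and hg38 are named in the submitters' processing notes, without roles. How reads were counted, with which annotation and strand setting, and what was done with multiply aligned ones is not given.

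Members were matched by Ensembl identifier to current symbols, 2 through an older HIST name. Positions came from GENCODE 29. Counts were filtered with filterByExpr and scaled by TMM, and 18959 genes and 1076 repeat subfamilies were fitted in 1 quasi-likelihood model of 5 groups (edgeR 4.0.16, R 4.3.3; 15 residual degrees of freedom), with Benjamini-Hochberg adjustment over all genes and a threshold of 0.05. The code was tested on simulated data. DESeq2 1.42.0, other scalings, no filter, blocks, a GC and length offset and the omission of each library were tried. Groups differ in sample code letter, which is not balanced. Pairs of replicates differed beyond counting noise (lowest chi-square per degree of freedom 8.19), so none were merged. Members and lists were chosen with earlier results of these data known. Named were the 2 most abundant members per family, up to 3 called members each way per comparison, untested members, called list genes, and SLBP, NPAT, E2F1, CCNE2, NASP, PCNA, H2AZ1 and H3-3B. Others were named after their values were seen.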

Additional observations from a re-analysis of the deposited data

Results flagged for a closer look

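Among 165 groups of 4 libraries checked, 5 held a library far from the other 3, where chance alone flags about 1 in 20 groups. H2BC12 was at 383 CPM in G2 replicate 2, against 143 to 174 CPM in the other G2 libraries. In the same library CDC6 was at 194 CPM, against 137 to 143 CPM, and E2F1 at 25.6 CPM, against 18.3 to 19.0 CPM. H2BC1 was at 0.344 CPM in asynchronous replicate 1 (7 counts), against 0 to 0.0356 CPM in the other asynchronous libraries. It was at 0.0829 CPM in MG132 plus α-amanitin replicate 4 (3 counts), against 0.0275 to 0.0326 CPM in the others of that group.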

How the results depend on the processing

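Summed histone levels moved by less than the SD of their group under each other scaling. That is a weak limit, as the SD was 3081 on a mean of 6194 CPM in G2 and 13883 on 17263 CPM in asynchronous cells. With single libraries left out the summed levels ranged from 2507 to 3358 CPM for MG132 plus α-amanitin, 6480 to 7956 for MG132, 6537 to 7630 for bortezomib, 5128 to 7105 for G2 and 11291 to 21864 for asynchronous cells. Counts of members called moved more, and where they moved the cause was not tested. For G2 against asynchronous cells (3 members, all lower) they were 1 with mitochondrial scaling, 0 with no filter, 17 with DESeq2, 0 with only those 2 groups, 10 with a GC and length offset, 0 with the code letter as a block, 0 without the 2 libraries poorest in protein-coding RNA (chosen after seeing the data) and 0 to 24 with 1 library left out. For MG132 against G2 (0) they were 1 each with DESeq2, only those groups and the offset, and 0 to 1 with 1 library left out. In each of the named settings that member was H2BC1. For bortezomib against G2 (0) they were 1 with DESeq2 (H2BC1), 1 with only those groups (H3C6), and 0 to 2 with 1 library left out. H2BC1 passed the low-count filter through the libraries of these drugs, so its calls are a description. For MG132 plus α-amanitin against MG132 (1) they were 6 with DESeq2, 3 with only those groups, 4 with the offset, 0 without the 4 libraries skewed by GC content, 2 without the 2 libraries poorest in protein-coding RNA, and 0 to 5. For MG132 plus α-amanitin against G2 (1) they were 9 with mitochondrial scaling, 2 with DESeq2, 0 with the letter block, and 0 to 2. For MG132 against bortezomib they were 0 throughout.

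Replicate numbers did not pair the samples throughout: correlations of same-numbered libraries ranged from -0.61 to 0.62. For MG132 plus α-amanitin against MG132 they were 0.53 and 0.50 for replicates 1 and 4, where other numbers reached at most 0.22 and -0.11. Replicates 2 and 3 had 0.07 and 0.03 in that comparison. With a replicate block 0 members passed for G2 against asynchronous cells, and the number called was as without the block in the other 5 comparisons, while CENPA lost its call for G2 against asynchronous cells and for bortezomib against G2 (edgeR adjusted p = 0.0918 and 0.0715). Of 64 named fold changes under 1982 alternative values in all, 0 changed direction, 96 fell out of the called range and 47 entered it. Depth limits H2BC1, at 0 to 22 counts per library.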
